A study of Mus musculus with 60 samples.

Results

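Ribosomal protein genes were examined in the striatum, the input nucleus of the basal ganglia, of 60 heterogeneous stock-collaborative cross (HS-CC) mice. Members were all genes of the deposited gene table whose symbol begins with Rpl, Rps, Mrpl or Mrps, with the 8 Rps6k kinases left out. The rule found 106 of the 9066 genes in the table. The cytosolic set (Rpl, Rps) held 41 members, of which 25 were genes and 16 were rows that the annotation calls pseudogenes or retrotransposed copies. The mitochondrial set (Mrpl, Mrps) held 65 members, of which 63 were genes and 2 were pseudogenes. Rps19bp1, which encodes a binding partner of Rps19 and not a subunit of the ribosome, was taken in by its prefix and is counted among the 25. The study sequenced polyA RNA, 1 library per mouse, from 28 females (13 that did not respond and 15 that did) and 32 males (17 and 15) scored in a test for catalepsy, the fixed posture that haloperidol can induce. All 4 groups were outbred animals descending from 8 inbred founder strains, after earlier generations bred selectively for their response to haloperidol, and neither the drug dose nor the age was given in the sources used here. The mice differed genetically from one another, so each group was a sample of genotypes rather than a single strain.

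The cytosolic ribosome translates nuclear mRNAs and is built from a large (Rpl) and a small (Rps) set of proteins on rRNA. The mitochondrial ribosome translates the few mRNAs of the mitochondrial genome, all of which in mammals encode subunits of the respiratory chain and of ATP synthase, and its Mrpl and Mrps proteins are encoded in the nucleus, translated by cytosolic ribosomes and imported. Cytosolic ribosomal protein mRNAs begin with a 5′ terminal oligopyrimidine (TOP) run through which the cell can hold back their translation. They are among the most abundant mRNAs of any cell and have left many processed pseudogenes, which are intronless copies of the mRNA elsewhere in the genome.

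The promoters of the members were compared first. The RefSeq promoter table (GRCm38.p6, 250 bases before to 50 after the annotated start) matched 16 of the 25 cytosolic genes, 56 of the 63 mitochondrial genes and 6485 of the 8858 named genes of the gene table. A TOP run, searched as a C followed by at least 4 pyrimidines on the sense strand and starting within 5 bases of the annotated start, was found in 8 of 16 cytosolic genes (50%) and 16 of 56 mitochondrial genes (28.6%), beside 23.8% of the genes of the table and 21.2% of all genes with a promoter. With the start allowed within 25 bases, a setting chosen after seeing the data, the shares were 87.5%, 71.4%, 60.4% and 59.3%, so that this wider search found the letters in most promoters of any kind. The ETS core CCGGAAG, on either strand, was found in 6 of 16 cytosolic genes (37.5%) and 20 of 56 mitochondrial genes (35.7%), beside 20% of the genes of the table. The YY1 core AAGATGGC was found in 3 cytosolic genes (18.8%) and 10 mitochondrial genes (17.9%), beside 5.83% of the genes of the table. The palindromic NRF1 core was found in none of the 16 cytosolic and in 3 mitochondrial promoters (5.36%), those of Mrpl9, Mrpl32 and Mrpl39, beside 2.64% of the genes of the table. The TATA box TATAAA (12.5% and 7.14%, beside 8.03%), the E-box CACGTG (12.5% and 8.93%, beside 12.1%) and the cAMP response element TGACGTCA (12.5% and 3.57%, beside 3.73%) were found in 2 cytosolic promoters each, and in 4, 5 and 2 mitochondrial promoters. An ETS core on the reverse strand, CTTCCGG, itself begins with letters that count as a TOP run. Windows of 60 bases before to 20 after the start are shown for 4 cytosolic and 3 mitochondrial members, with the TOP run or motif in capitals, as examples of the motifs counted.
Rpl4, chr9:64173327-64173406, plus strand: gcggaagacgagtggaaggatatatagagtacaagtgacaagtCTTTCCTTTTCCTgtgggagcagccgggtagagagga
Rpl27a, chr7:109519135-109519214, plus strand: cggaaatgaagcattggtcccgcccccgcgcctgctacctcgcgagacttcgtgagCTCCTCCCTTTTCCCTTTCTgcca
Rpl13a, chr7:45128726-45128805, minus strand: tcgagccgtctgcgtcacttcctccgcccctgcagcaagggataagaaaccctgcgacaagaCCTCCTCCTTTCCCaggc
Rps9, chr7:3703981-3704060, plus strand: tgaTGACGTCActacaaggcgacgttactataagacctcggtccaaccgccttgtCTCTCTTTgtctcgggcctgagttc
Mrpl9, chr3:94443276-94443355, plus strand: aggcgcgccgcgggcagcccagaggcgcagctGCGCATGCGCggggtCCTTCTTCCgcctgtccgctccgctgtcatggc
Mrpl3, chr9:105053208-105053287, plus strand: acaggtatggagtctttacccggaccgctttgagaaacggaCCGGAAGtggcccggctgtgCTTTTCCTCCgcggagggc
Mrpl58, chr11:115403692-115403771, plus strand: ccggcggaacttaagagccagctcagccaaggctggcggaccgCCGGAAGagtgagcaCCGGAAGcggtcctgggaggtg
In Rpl4, Rpl27a and Rpl13a, which encode large subunit proteins, and in Rps9, a small subunit protein, the capitals mark the TOP run, which in Rpl4 met only the wider search, and in Rps9 also a cAMP response element further upstream. The capitals mark the NRF1 core and a TOP run that met only the wider search in Mrpl9, the ETS core and a TOP run that met the narrower search in Mrpl3, and 2 ETS cores in Mrpl58, the ribosome-bound peptide release protein. A match is a description of letters and does not show that a factor binds there.

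The members differed in how much of their sequence is their own. In the reference transcripts (GENCODE M21, GRCm38), windows of 50 bases were compared with the transcripts of all other genes. In the 25 cytosolic genes of the table the median share of windows found in another gene was 26.2% (range 0 to 85.5%), and in the 63 mitochondrial genes it was 2.09% (0 to 73.9%). Of 92 annotated protein-coding Rpl and Rps symbols, 67 were not matched to a row of the gene table, and their median share was 53%. Of 78 annotated Mrpl and Mrps symbols, 15 were not matched, with a median of 22.6%. The table's 9066 genes equal in number those the paper kept after filters on read counts and on the network connectivity of exons. The paper's read filter was an average of 500 counts, which many deposited gene values do not reach. The median of the mean values was 362 in the cytosolic genes and 317 in the mitochondrial genes. Levels, correlations and percentiles below cover only the matched members, and why the others had no row was not tested. The values of Rpl36a (85.5% shared), Rps27a (72.0%), Rpl31 (70.0%), Rpl11 (62.2%), Rplp1 (60.0%) and Rpl13a (57.4%) are uncertain where the counting could split reads between copies. Rps3 (2.96%) and Rpl8 (6.49%) shared few windows. Across the 25 cytosolic genes, Spearman's rho between the shared share and the value per kb was -0.36, a description across genes that are not independent.

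Several of the highest rows were intronless copies. The reads were aligned with Bowtie, which places a read as 1 unbroken stretch and does not split it over an intron. A read from the junction of 2 exons of the parent mRNA therefore has no unbroken match in the parent gene. It can have one in an intronless copy, and a parent can have several such copies. Coding stretches of 60 bases, 30 on either side of a junction, are shown for 3 parents and their copies, in lower case with the bases that differ in capitals.
Rpl14 (exons 2 and 3) and Rpl14-ps1, chr7:45325040-45325099, plus strand: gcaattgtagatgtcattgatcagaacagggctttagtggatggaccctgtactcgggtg
Rps16 (exons 2 and 3) and Rps16-ps2, chr5:129128338-129128397, minus strand: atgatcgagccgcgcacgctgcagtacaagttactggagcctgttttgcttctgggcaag
Mrpl48 (exons 5 and 6): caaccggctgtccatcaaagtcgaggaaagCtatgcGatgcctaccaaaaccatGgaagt
Mrpl48-ps, chr4:88599413-88599472, minus strand: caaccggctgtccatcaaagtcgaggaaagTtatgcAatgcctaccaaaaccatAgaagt
The stretches of Rpl14 and of Rps16 were identical in parent and copy, whereas that of Mrpl48 differed from its copy at 3 bases. Over the whole alignment Rps16-ps2 and Rpl10a-ps1 were identical to their parents over 441 and 654 bases, Rpl14-ps1 differed at 4 of 653 bases with 1 gap (99.4% identity), and Rpl36a-ps3 was the least alike of all 18 copies (87.5%). Reads of these copies and of their parents cannot be told apart where the sequences are the same, and the copies are therefore given by their row name and not as transcribed loci.

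Values below are the deposited normalised read counts, which are reads on the union of a gene's exons multiplied by an upper quartile factor for each library. Total reads per library, recovered from the deposited values, ran from 4913122 to 21872744 with a median of 14520042. These totals cover only the 9066 genes of the table and are not the full sequencing depth. Totals fell into a group of 17 libraries between 4913122 and 9507322 reads and a group of 43 between 12051239 and 21872744, and each of the 4 mouse groups held 4 or 5 of the former. A 3′ bias index, the median slope of the exon values from the first to the last exon over 5209 genes relative to the mean of all mice, reached 1.48 (mouse 63), 0.907 (mouse 5), 0.683 (mouse 4) and 0.477 (mouse 62), beside at most 0.187 in the other 56. These 4 mice were 1 from each group. The markers of medium spiny neurons, the principal cells of the striatum, were measured for 7 of 11 listed genes and had a median summed value of 88509 (56074 to 143435), and 2 of 3 listed cortical markers were measured with a summed value between 267 and 4533.

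Of the 106 members, 103 averaged at least 10 and were tested, and the 3 that did not were the copies Rpl13-ps5 (mean 5.94), Rps2-ps9 (5.15) and Rps19-ps11 (1.5). Per kb of exon the highest cytosolic member was Rplp1, an acidic protein of the ribosomal stalk that recruits elongation factors, at 5319. It was followed by the rows Rpl14-ps1 (4873 per kb) and Rps15-ps2 (3411), by Rpl8 (3037) and Rpl4 (2134), proteins of the core of the large subunit, and by Rpl10a-ps1 (1823). The lowest cytosolic gene per kb was Rps19, a small subunit protein mutated in Diamond-Blackfan anaemia, at 15.7. Its mean value was 73.6, and 25.3% of its windows were shared with other genes. How far the value of Rps19 reflects the amount of its mRNA was not tested. The highest mitochondrial rows per kb were the copies Mrpl48-ps (840) and Mrpl23-ps1 (566), then Mrpl34 (453), Mrpl41 (436), Mrpl28 (405) and Mrpl10 (373). Median values per kb were 267 in the cytosolic genes, 698 in the 13 tested cytosolic copies and 140 in the mitochondrial genes.

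In Rplp1 the normalised read count was 1676 in the lowest mouse, 2334 in the median mouse and 6443 in the highest, with a mean of 2654 ± 923 (SD, n = 60). In Rpl8 it was 2686, 3884 and 7469, with a mean of 4127 ± 994. In Mrpl11, a mitochondrial large subunit protein at the base of the stalk, it was 362, 479 and 978, with a mean of 499 ± 101. The highest mouse was mouse 63 in all 3 of these genes. That mouse was the highest in 20 of 25 cytosolic genes, 8 of 13 cytosolic copies, 55 of 63 mitochondrial genes and both mitochondrial copies. The same share over all genes was not counted, so these counts do not set the members apart from other genes.

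Cytosolic members varied more between mice than mitochondrial ones. The median SD on the log2(value + 1) scale was 0.39 for the 25 cytosolic genes and 0.43 for the 13 copies, beside 0.24 for the 63 mitochondrial genes and 0.23 for all 8535 genes tested. The corresponding median coefficients of variation were 28.9%, 32.7%, 17.6% and 16.3%. Counting error was smaller, with a median SD of 0.085 for the cytosolic genes and 0.089 for the mitochondrial genes on the log2 scale. The most variable mitochondrial gene was Mrps33, a small subunit protein found only in mitochondrial ribosomes, with an SD of 0.56. Its counting SD was 0.21 and its mean was 67.7 reads. Among the cytosolic members the largest SD was that of the copy Rps15a-ps6 (0.68), and among the cytosolic genes that of Rps19 (0.49). The least variable mitochondrial gene was Mrpl37, a mitochondria-specific large subunit protein, with an SD of 0.13. Rpl7l1, a relative of Rpl7, had the smallest SD among the cytosolic genes (0.21).

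To compare the 2 sets mouse by mouse, a set level was formed as the mean over members of log2(value + 1) minus the gene's mean over the 60 mice. The level of the 25 cytosolic genes ran from -0.44 to 0.91 and that of the 65 mitochondrial members from -0.25 to 0.76. Mouse 63 had a cytosolic level of 0.91 and a mitochondrial level of 0.76, mouse 62 had 0.67 and 0.46, mouse 5 had 0.59 and 0.44, and mouse 4 had 0.51 and 0.39. These 4 mice had the highest levels of both sets, as the other 56 reached at most 0.45 and 0.25. In mouse 63 all 25 cytosolic genes and all 65 mitochondrial members lay above their mean. In bulk tissue, more cells rich in these mRNAs and more of the mRNA per cell cannot be told apart.

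**Figure D1:**
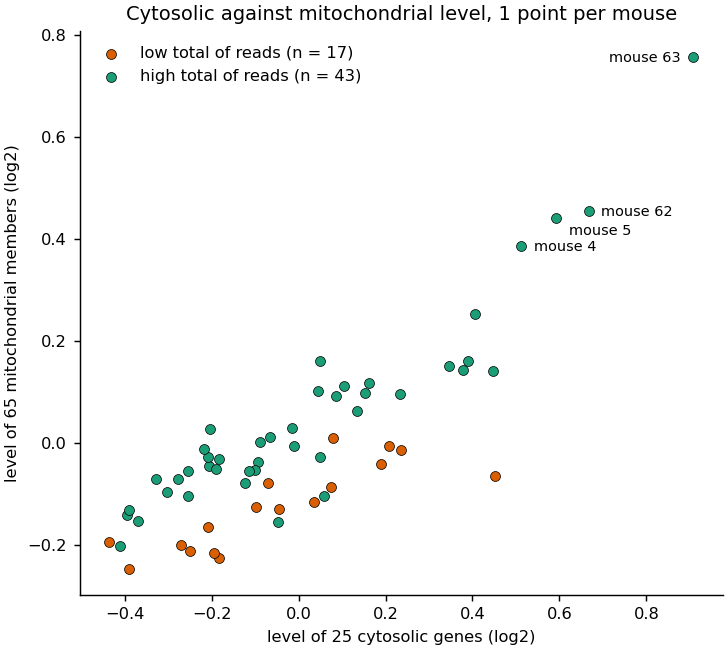
Level of the 25 cytosolic genes (x axis, log2) against the level of the 65 mitochondrial members (y axis, log2), with 1 point per mouse and colours for the total of reads. The points rise together within both colours, mice 63, 62, 5 and 4 sit at the upper right, and the 17 libraries of low total lie at or below 0.01 on the y axis.

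Cytosolic and mitochondrial levels rose together across mice, with Pearson's r = 0.85 and Spearman's rho = 0.77 over 60 mice, given as a description because both levels come from the same libraries and the same scaling. Within the 43 libraries of high total r was 0.92, and within the 17 of low total it was 0.84. Without mice 63, 5, 4 and 62 the 39 remaining libraries of high total gave r = 0.86. The large and small subunit members of the mitochondrial ribosome gave r = 0.96 with each other, and those of the cytosolic ribosome r = 0.94. The cytosolic genes and the cytosolic copies gave r = 0.93.

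Single members were then compared. The median pairwise r over 60 mice was 0.72 (jackknife SE over mice 0.05) among the 38 cytosolic members, 0.60 (0.12) among the 65 mitochondrial members and 0.60 (0.10) between the sets, whereas the median over all pairs of the 8535 genes was near 0. Among the 25 cytosolic genes alone it was 0.67, and among the 13 copies 0.80. Leaving out mice 63, 5, 4 and 62 lowered the cytosolic value to 0.62, the mitochondrial value to 0.33 and the value between the sets to 0.37. Within the 17 libraries of low total these were 0.62, 0.15 and 0.27.

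**Figure D2:**
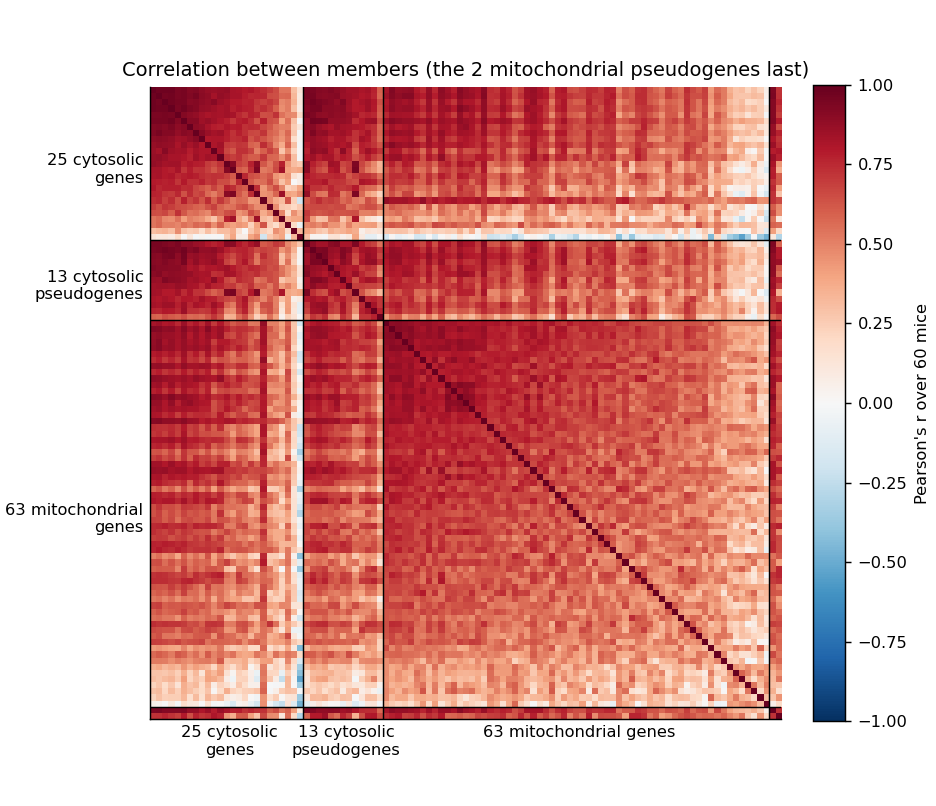
Pearson's r over 60 mice between all pairs of the 103 tested members, ordered within each class by the mean correlation with the own set. The cytosolic block has the highest values, with a median of 0.72, and Rps19 stands out with a mean of 0.12 within its set.

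Rps3, which lines the mRNA entry channel, Rps20 and Rplp1 had the highest mean r with the other cytosolic members (0.80 each). Rps19 had the lowest, 0.12, and its mean r with the mitochondrial set was -0.11. The next lowest were Rpl11 (0.28), which binds 5S rRNA and can restrain Mdm2, and Rpl7l1 (0.43). The mitochondrial genes most correlated with their set were Mrpl46 (0.72), Mrpl20 (0.71), Mrpl11 (0.71) and Mrps16 (0.70), and the least were Mrpl37 (0.24), Mrpl19 (0.33), Mrpl44 (0.36) and Mrpl4 (0.36). Rps19bp1 correlated more with the mitochondrial set (0.69) than with the cytosolic one (0.57), although it was counted among the latter.

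Network connectivity, the sum over all genes of the absolute correlation to the power 6, placed the cytosolic genes at a median percentile of 90.3 among the 9066 genes, with 13 of 25 in the top 10%. Among the highest were Rpl8 (99.8), Rplp1 (99.4) and Rps20 (99.3), and the lowest was Rpl11 (1.74). The mitochondrial members had a median percentile of 76.9 with 16 of 65 in the top 10%. Without mice 63, 5, 4 and 62 the cytosolic genes had a median percentile of 81.8 with 8 of 25 in the top 10%, whereas the mitochondrial members fell to 49.1, near the middle of the table, with 1 of 65.

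Gene length moved with these correlations across the whole table. Among 8291 genes outside the 2 sets, Spearman's rho between the length of all exons and the correlation with the cytosolic level was -0.58, and with the mitochondrial level it was -0.65. In the 2073 shortest of those genes, up to 3090.5 bases, the median r was 0.48 with the cytosolic level and 0.59 with the mitochondrial level, and in the 2072 longest it was -0.51 and -0.60. Members are short, with a median of 2114 bases in the cytosolic genes and 2255 bases in the mitochondrial genes, beside 4995.5 in the table. The cytosolic genes, each set against the mean of the others, had a median r of 0.81 with their own level, and the mitochondrial members one of 0.74 with theirs. An r of at least 0.7 was reached by 17 of 25 cytosolic genes and by 20.8% of the 2073 shortest genes, and for the mitochondrial level by 39 of 65 mitochondrial members and by 31.4% of the 2073 shortest genes. In the 39 libraries of high total without mice 63, 5, 4 and 62 the cytosolic median stayed at 0.81 and that of the 2073 shortest genes was 0.31, while the mitochondrial median was 0.60 and that of the 2073 shortest genes 0.32. The part of length in the shared variation was not tested.

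**Figure D3:**
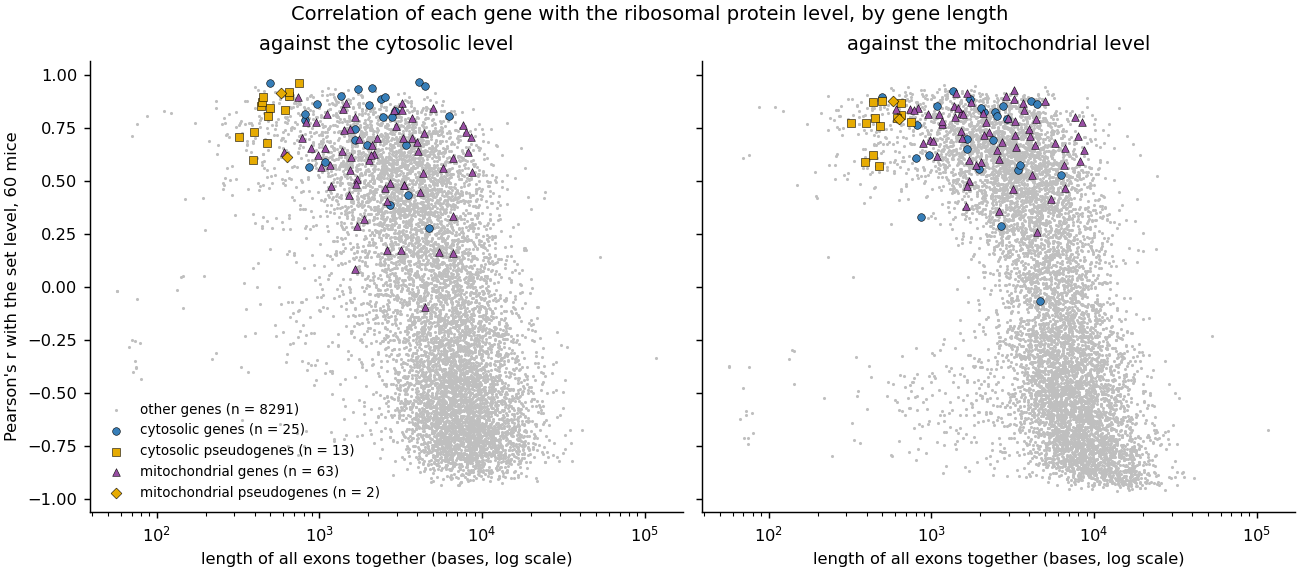
Pearson's r of each tested gene with the level of the 25 cytosolic genes (left) and of the 65 mitochondrial members (right) over 60 mice (y axis) against the length of its exons together (x axis, bases, log scale), each member being set against the mean of the others of its set. Grey points are the 8291 other genes, which fall from above to below 0 with length, and most members lie in the upper left.

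Related genes of the pathway were taken from lists. Of 4 listed proteins of the cytosolic ribosome outside the prefixes, only Rack1, the scaffold protein of the small subunit, was measured, and its r with the cytosolic level was 0.92. The median r with the cytosolic level was 0.19 over 51 cytosolic translation factors, 0.10 over 60 ribosome biogenesis genes, 0.38 over 4 mitochondrial ribosomal proteins with other symbols, 0.15 over 17 mitochondrial translation and assembly factors and -0.01 over 13 mitochondrial tRNA synthetases, beside -0.07 over all genes. In the 39 libraries of high total without mice 63, 5, 4 and 62 these were 0.14, -0.14, 0.23, 0.05 and 0.08, beside -0.05. The medians of the biogenesis genes and of the tRNA synthetases thus changed sign. Singled out after their values were seen, Eef1b2, the nucleotide exchange factor of elongation factor 1A, had r = 0.90, and Chchd1, the highest of the 4 mitochondrial ribosomal proteins with other symbols, had r = 0.90, whereas Aurkaip1 had 0.53, Dap3 0.22 and Ptcd3 0.13. The long initiation factor genes Eif4g1 and Eif3a had r = -0.93 and -0.87. With the mitochondrial level the medians of the lists, in the same order, were 0.36, 0.25, 0.62, 0.27 and 0.10, beside -0.09 over all genes. In the 39 libraries those with the mitochondrial level were 0.16, -0.13, 0.42, 0.06 and -0.05, beside -0.09.

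Markers of cell types were set beside the levels. The summed value of the listed oligodendrocyte markers (4 of 6 measured, sums of 78527 to 225922) had r = 0.68 with the cytosolic level, that of microglia (4 of 5, 2862 to 6738) 0.68, that of astrocytes (3 of 5, 13594 to 23782) 0.63, that of cortical neurons -0.52 and that of medium spiny neurons 0.31. In the 39 libraries of high total without the 4 mice of strong 3′ bias these were 0.69, 0.55, 0.78, -0.61 and -0.08. With the mitochondrial level they were 0.59, 0.66, 0.55, -0.33 and 0.39 over all mice and 0.54, 0.48, 0.69, -0.49 and -0.16 in those 39 libraries, so the value of medium spiny neurons changed sign with both levels. Within the oligodendrocyte list r with the cytosolic level ran from -0.05 for Mag through 0.34 for Cnp to 0.74 for Mbp, with a median of 0.42 (0.30 in the 39 libraries). No listed marker of choroid plexus and ependyma was measured, and 1 of 4 endothelial markers was, Flt1, with r = -0.25. The part of the cell makeup in these levels was not tested.

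Libraries with strong 3′ bias carried more of both sets. In a limma fit with the 3′ bias index as a term, chosen after seeing the data, 39.5% of all genes rose and 37.3% fell with the index at an adjusted p under 0.05. Beside this background 21 of 25 cytosolic genes, all 13 tested cytosolic copies, all 63 mitochondrial genes and both mitochondrial copies rose, and no member fell. Rplp1 rose by 0.91 log2 per unit of the index (SE 0.15, limma adjusted p = 6.29e-07), Rpl8 by 0.71 (SE 0.11, adjusted p = 9.03e-08) and Mrpl11 by 0.65 (SE 0.08, adjusted p = 1.85e-10). Without mouse 63, when 36.6% of all genes rose and 33.6% fell, 17 cytosolic genes and 58 mitochondrial genes rose and 1 cytosolic gene fell. Within the libraries of high total, when 34.6% rose and 34.3% fell, 24 and 60 rose and none fell. Without mice 63, 5, 4 and 62, when 19.1% of all genes rose and 22% fell, 3 cytosolic genes rose and 3 fell, 28 mitochondrial genes rose and none fell. The correlation of the set level with the index was 0.55 for the cytosolic genes and 0.81 for the mitochondrial members over 60 mice. Without the 4 mice it was 0.02 and 0.42, and 0.06 and -0.05 in the 39 libraries of high total.

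Libraries of low total carried less of the mitochondrial set. Mitochondrial levels in the 17 libraries of low total ran from -0.25 through a median of -0.13 to 0.01, and in the 43 others from -0.20 through -0.01 to 0.76. In a limma fit 25.2% of all genes were higher and 27.4% lower in the libraries of low total, and beside this 41 of 63 mitochondrial genes were lower and none higher. Of the 25 cytosolic genes 7 were lower and 2 higher, Rps19 being among the latter. Without mice 63, 5, 4 and 62, when 23.5% of all genes were higher and 23.3% lower, 34 mitochondrial genes were lower. Of the cytosolic genes 4 were then lower and 4 higher. Libraries of low total also had the lower 3′ bias index (median -0.25, against 0.01). They were the unbroken run of mouse numbers 41 to 56, and mouse 26. Mouse 26 had an index of -0.01 and the highest mitochondrial level among them, 0.01. The total, the index and the place in this run therefore cannot be told apart.

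Rps19 was among the 2 cytosolic genes that were higher in the libraries of low total. Its value was 32.1 in the lowest, 107 in the median and 161 in the highest library of low total, and 35.9, 59 and 93.4 in the libraries of high total, so that the ranges overlapped but the median of the former lay above the highest of the latter. The difference was 0.73 log2 (SE 0.10, limma adjusted p = 5.92e-08). Rps19 was the cytosolic gene of lowest value per kb, and 25.3% of its windows of 50 bases were shared with other genes.

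Catalepsy phenotype was then compared. No member of either set passed the threshold between responders and non-responders, in limma with Benjamini-Hochberg adjustment over 8535 genes, where 10 genes (0.117%) did. At an unadjusted p under 0.05, which 6.19% of all genes met, stood 2 of 25 cytosolic genes, none of the 13 tested copies and 3 of 63 mitochondrial genes. The median log2 difference, responder minus non-responder, was 0.00 for the cytosolic genes (range -0.19 to 0.24), 0.00 for the cytosolic copies (-0.07 to 0.24) and 0.00 for the mitochondrial genes (-0.16 to 0.37), beside 0.00 for all genes. The median standard error of a single gene was 0.10 in the cytosolic and 0.06 in the mitochondrial set. None was called with edgeR or DESeq2 on the recovered reads either. Of the related lists in the same comparison, where 0.117% of all genes were called, 1 of 13 mitochondrial tRNA synthetases was, Rars2, the arginyl-tRNA synthetase of mitochondria, at -0.32 (SE 0.06, limma adjusted p = 0.010), and none of the 51 translation factors, 60 biogenesis genes, 17 mitochondrial factors or 4 mitochondrial ribosomal proteins with other symbols was.

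**Figure D4:**
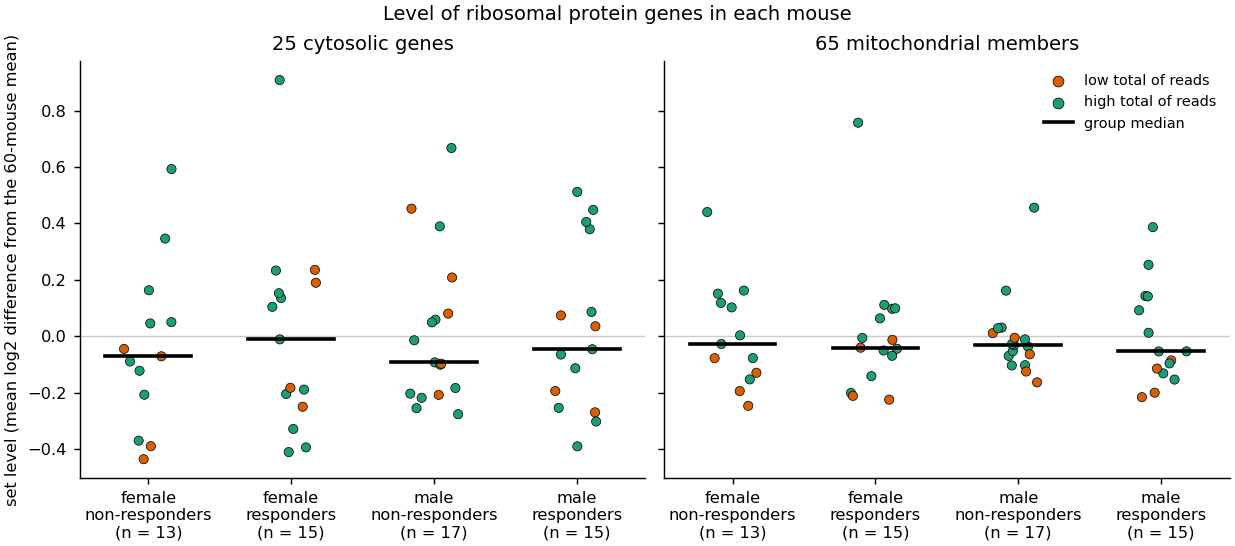
Level of the 25 cytosolic genes (left) and the 65 mitochondrial members (right) in each mouse of the 4 groups (y axis, mean log2 difference from the 60-mouse mean), with the group medians as bars and colours for the total of reads. The groups overlap over nearly their whole range, and each has 1 mouse above the rest. In the cytosolic level of male responders that mouse is close to the next (0.51 and 0.45).

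Set levels overlapped between all groups. The cytosolic level had a lowest, median and highest value of -0.44, -0.07 and 0.59 in female non-responders, -0.41, -0.01 and 0.91 in female responders, -0.28, -0.09 and 0.67 in male non-responders, and -0.39, -0.05 and 0.51 in male responders. The mitochondrial level was -0.25, -0.03 and 0.44 in female non-responders, -0.23, -0.04 and 0.76 in female responders, -0.16, -0.03 and 0.46 in male non-responders, and -0.22, -0.05 and 0.39 in male responders.

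Mrps33 had the smallest p among the members. Its value was 12.7 in the lowest, 57 in the median and 127 in the highest non-responder, and 24.6, 70.9 and 174 in the responders. Responders lay 0.37 log2 higher (SE 0.14, limma p = 0.0097, adjusted p = 0.46) with wide overlap. Mrps15, a small subunit protein shared with bacterial ribosomes, was at 163, 250 and 342 in non-responders and 186, 277 and 430 in responders, a difference of 0.15 (SE 0.07, limma adjusted p = 0.70). Mrps23 was at 413, 536 and 726 in non-responders and 342, 495 and 826 in responders, a difference of -0.12 (SE 0.06, limma adjusted p = 0.77). With the 3′ bias index as a covariate the difference in Mrps23 was -0.15 (SE 0.04, limma adjusted p = 0.064), the smallest adjusted p of any member in any setting. The fourth mitochondrial gene in order of p was Mrpl9, at -0.12 (SE 0.06, limma adjusted p = 0.86).

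In the cytosolic set Rpl36a, an X-linked large subunit gene, was at 57.8, 122 and 201 in non-responders and 89.8, 132 and 238 in responders, a difference of 0.24 (SE 0.10, limma adjusted p = 0.66). Rpl11 was at 49.7, 82.2 and 154 in non-responders and 47.9, 74.2 and 107 in responders, a difference of -0.19 (SE 0.09, limma adjusted p = 0.72). Rpl7l1 differed by 0.08 (SE 0.05, limma adjusted p = 0.99). The most abundant members differed little, Rplp1 by 0.00 (SE 0.11), Rpl8 by -0.01 (SE 0.08) and Rpl4 by 0.07 (SE 0.09).

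**Figure D5:**
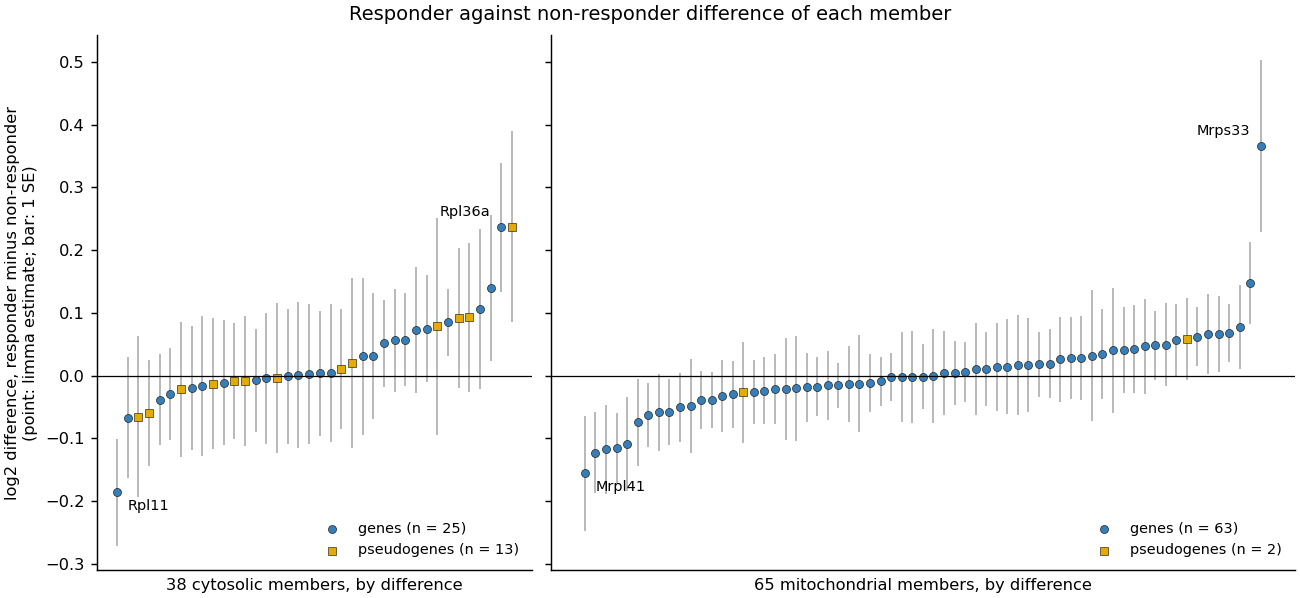
Log2 difference between responders and non-responders (y axis) for the 38 cytosolic (left) and 65 mitochondrial (right) members in order of the difference, as limma estimates with bars of 1 SE. Mrps33 stands highest at 0.37, and no member passes the threshold.

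Within sexes the picture was the same. In females, where 0% of all genes were called, and in males, where 0% were called, no member passed. In females 2.47% of all genes and none of the 103 members had an unadjusted p under 0.05, and in males 3.78% of all genes, 1 of 25 cytosolic genes and 2 of 63 mitochondrial genes. The interaction of sex and phenotype called 0% of genes and no member, with 0.562% of all genes and none of the members at an unadjusted p under 0.05.

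Between females and males 2 genes (0.0234%) and no member were called. At an unadjusted p under 0.05, which 2.06% of all genes met, no member stood. Rps21, a small subunit protein, had the smallest p of the cytosolic set, with a female minus male difference of -0.17 (SE 0.12, limma adjusted p = 1.00), at 22.9, 42.9 and 94.1 in females and 28.7, 49.7 and 80.5 in males. The others named by their rank were Rpl22 (-0.07), Rpl21 and Rps27a, which encodes a fusion with ubiquitin, in the cytosolic set, and Mrpl37 (0.05), Mrps15 (0.08), Mrps22 and Mrps9 (-0.05) in the mitochondrial set. The median difference was -0.04 for the cytosolic genes and 0.02 for the mitochondrial genes, beside 0.01 for all genes.

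The exon table showed where in the members the reads lay. The 25 cytosolic genes had 129 exon rows with a median of 5, of which 15 were at 0 in all mice, and the 63 mitochondrial genes had 318 rows, of which 29 were at 0, beside 16184 of 114691 rows over all genes. A single exon row held over 75% of the value in 12 of 25 cytosolic and 16 of 63 mitochondrial genes. The same share over all genes was not counted. The median number of rows was 5 in the genes of either set and 10 over all genes. In Rplp1 the third of 3 rows held 90.7% ± 5.4 (SD of the share over 60 mice) and in Rps24, whose transcripts are alternatively spliced near the 3′ end, the fourth of 8 rows held 78.3% ± 5.1. In Rpl15 the fourth of 4 rows held 98.8%, and in Rpl27a the third of 3 held 97.5%. The reads of Rpl8 were spread more evenly, with 41.2% in the fourth of 6 rows. Of the 16 cytosolic copies 13 had a single exon row.

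Where a copy and its parent were both tested, the rows were compared directly. In 4 of 6 such pairs Pearson's r over 60 mice was 0.89 for Rpl13a and Rpl13a-ps1, 0.77 for Rpl36a and Rpl36a-ps3, 0.58 for Mrpl48 and Mrpl48-ps and 0.42 for Rps24 and Rps24-ps2. These are descriptions, since both rows of a pair come from the same libraries and scaling. The median r between any cytosolic gene and any cytosolic copy was 0.74 over 325 pairs, so that the first 2 pairs lay above it and the Rps24 pair below it, and the Mrpl48 pair lay near the 0.60 of all mitochondrial pairs. Spearman's rho was 0.83, 0.69, 0.49 and 0.27 in that order. Without the 2 mice farthest from the median, r was 0.89, 0.75, 0.46 and 0.28. Within the libraries of high total r was 0.91, 0.77, 0.81 and 0.65, and within those of low total 0.87, 0.71, 0.45 and 0.40. The row Mrpl48-ps averaged 534, above the 132 of Mrpl48.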

How the data were processed

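PolyA RNA of hand-dissected striatum from 60 mice was sequenced, 1 library per mouse. The authors aligned the reads to NCBI m37/mm9 with Bowtie 0.12.7, counted them on the union exons of Ensembl 59 genes and deposited a gene-level signal, the count multiplied by an upper quartile factor of edgeR 3.4.2 for each library. The deposited exon values are a score, exon counts that the authors scaled and rounded. The kit does not mark strand, so overlapping genes cannot be separated. Dividing each column by the value of 1 read gave whole reads for 100% of values (tolerance 0.001 reads). Total reads over the 9066 genes of the table ran from 4913122 to 21872744. Symbols were matched to 8858 IDs (97.7%) through GENCODE M21.

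Genes averaging at least 10 were fitted as log2(value + 1) with limma 3.58.1 (trend; R 4.3.3) on 4 group means, with Benjamini-Hochberg adjustment over all 8535 genes and a threshold of 0.05. edgeR 4.0.16 and DESeq2 1.42.0 on the recovered reads were alternatives. Fits with the 3′ bias index or the library total as a term of interest, and the wider TOP search, were added after seeing the data. Fits were tested on simulated data. Counting SDs cover counting error only, since reads carried no molecular identifiers. Levels per kb divide by the union exon length in GENCODE M21, not by that of the older Ensembl models on which the reads were counted. The comparisons with gene length used the same GENCODE lengths. Both are approximate where these annotations differ, and the effect on the order of members was not tested. Named members were those ranked first by value per kb, SD, mean correlation or p in each set, plus a few fixed symbols. Other genes and copies were named after their values were seen. Members and lists were chosen with earlier results of these data known. Protein sequences were not used here. A few named members and a sequence are not reported here.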

Additional observations from a re-analysis of the deposited data

How the results depend on the processing

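No member was called under any alternative run of the response or sex comparisons. For the response, 10 genes of the table were called, and the alternatives gave 6 (genes averaging at least 500), 23 (DESeq2), 18 (library block as covariate), 5 (only libraries of high total) and 60 (3′ bias index as covariate). Between sexes the 2 calls became 0 in the libraries of high total. Within females the count of 0 became 1 with the bias covariate and 1 without mouse 63, and within males it became 1 with the bias covariate. The median r among cytosolic members (0.722) was 0.644 as Spearman's rho, 0.673 on the log2 scale, 0.783 in the libraries of high total, 0.619 without mice 63, 5, 4 and 62, 0.631 on residuals after the bias index, 0.878 among members averaging at least 500 and 0.623 in the libraries of low total. Among mitochondrial members (0.596) it was 0.426 as Spearman's rho, 0.325 without the 4 mice, 0.305 on residuals, 0.149 at low total and 0.310 at high total without the 4 mice. Between the sets (0.599) these were 0.470, 0.366, 0.387, 0.271 and 0.430. The causes were not tested. The planned comparison of protein features was not run. No paired analysis was possible because replicate numbers were given in order within each group and each mouse gave 1 library. Counting error was below the spread between mice for the median member, but Mrps33, Rps19, Rpl11, Rps21, Rps27a and Rpl31 averaged under 80 reads.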
